A study of Xenopus tropicalis with 6 samples.

Results

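Among the 28165 gene identifiers of this Xenopus tropicalis (western clawed frog) data set, 16 had far more reads in replicate 2 than in replicate 1, both when tet2 and tet3 were targeted and in controls, with replicate 3 between them. The libraries were made from whole embryos at blastula stage 9. Of the 6 libraries, 3 came from Tet2/Tet3 Morpholino embryos, which received 30 ng of a Morpholino against tet2 and 30 ng of one against tet3. The other 3 came from control Morpholino embryos, which received 60 ng of a standard control Morpholino. All embryos were injected at the one-cell stage into the animal hemisphere in 5 nl, and each library pooled 50 of them. No untreated embryos are among the samples. A Morpholino is a modified antisense oligonucleotide, and these cover the start codon, so they block translation and need not lower the target mRNA. The labels call the samples biological triplicates but do not say what libraries with the same number share.

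A stage 9 blastula holds mRNA that the mother stored in the egg and, in growing amounts, the first transcripts of the embryo's own genome. Tet genes encode enzymes that oxidise methylated cytosine bases, a step towards the loss of DNA methylation. In pooled whole embryos, fewer cells with a transcript and less transcript per cell cannot be told apart. The deposited files name genes by identifier only, and none of the members (0 of 16) was found among the identifiers of RefSeq's genes for assembly UCB_Xtro_10.0. Functions, positions, sequences and cell type markers are therefore not given, and tet2 and tet3 were not analysed here. The 16 genes are numbered from the largest to the smallest replicate difference, and 4 are given by identifier.

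The genes were chosen by their measured levels in all 6 libraries, expressed as CPM (a gene's counts per 1000000 counts of its library). A member had a mean of at least 5 CPM, and its level in replicate 2 was at least 3 times that in replicate 1 in each group, after adding 0.1 CPM to each level. Its level in replicate 3 lay between those of replicates 2 and 1, ties allowed. A mean of 5 CPM or more was reached by 9614 genes, of which 36 passed the ratio in Tet2/Tet3 embryos and 30 in control embryos. They shared 26 genes, which is 72.2% of the first list, 86.7% of the second and 0.270% of the 9614. Replicate 3 lay between in 16 of the 26. The rule also sets aside the 100 genes highest in controls and genes with a Tet2/Tet3 over control ratio of at most 0.5, or at least 1.5, in all 3 same-numbered pairs. These exclusions removed 0 genes. The replicate ratios and the place of replicate 3 are therefore what defined the members, and they are described here without a test.

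Among the members, the difference between replicates 2 and 1 had nearly the same size in both groups. The rule asks for a ratio of at least 3 in both, so this closeness is partly set by the choice of genes. The ratio had a median of 5.33 in Tet2/Tet3 embryos and 5.60 in control embryos over the 16 genes. Setting the 2 genes with no reads in replicate 1 at their lower bounds cannot move these medians. Both genes already had the largest ratios. Among the 14 genes with reads in replicate 1, the ratio ran up to 44.5 in Tet2/Tet3 and 32.5 in control embryos. It ran down to 3.22 in Tet2/Tet3 and 3.15 in control embryos. The log2 ratio differed between the groups by at most 0.49 for any member, with a median absolute difference of 0.20. It was larger in Tet2/Tet3 embryos for 6 of the 16. Over all 9614 genes the log2 ratios of the groups, which share no library, correlated at r = 0.92. The points share the pairs' numbers and library depths, and genes are not independent, so this is a description. The median log2 ratio of all 9614 was -0.08 in Tet2/Tet3 and -0.02 in control embryos, so the middle of the distribution lay near 0 in both groups.

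Reads of 2 members were present in replicate 2 and absent from replicate 1. They are named because they stand apart, a choice made after their values were seen. Xetro.E01085 (member 1) had 911, 0 and 0 reads in replicates 2, 3 and 1 of the Tet2/Tet3 embryos, and 1028, 0 and 0 reads in those of the controls. It was thus read in replicate 2 only, at 22.6 CPM in Tet2/Tet3 and 23.0 CPM in control embryos. Against a floor of 3 counts per library, it was at least 315-fold higher in replicate 2 than in replicate 1 in Tet2/Tet3 embryos and at least 334-fold higher in controls. Its replicate 3 ties with replicate 1 at 0, and a rule that asks for a place strictly between would drop it and leave 15 genes.

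Xetro.F01259 (member 2) had 784, 592 and 0 reads in replicates 2, 3 and 1 of the Tet2/Tet3 embryos, against 995, 719 and 0 reads in those of the controls. Unlike member 1, it was read in replicate 3 as well, at 15.6 CPM in Tet2/Tet3 and 18.4 CPM in control embryos. Replicate 2 was at least 271-fold above replicate 1 in Tet2/Tet3 embryos and at least 324-fold above it in controls. A count of 0 in a replicate 1 library allows a level of up to 0.0716 CPM in Tet2/Tet3 and 0.0686 CPM in control embryos, which covers counting error only.

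The third gene of the order came close to this pattern. Member 3, with the letter F, had 62.7, 51.3 and 1.31 CPM in replicates 2, 3 and 1 of the Tet2/Tet3 embryos, and 54.4, 42.0 and 1.58 CPM in those of the controls. Its replicate 1 libraries still held 55 and 69 reads, so its low level there was measured and not only bounded. Replicate 2 stood 44.5 times above replicate 1 in Tet2/Tet3 embryos and 32.5 times above it in controls.

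The other 13 members differed by less. Their ratios of replicate 2 over 1 were 3.22 to 8.56 in Tet2/Tet3 and 3.15 to 10.5 in control embryos, and every one had 50 or more reads in each library. Their levels in replicate 2 ran from 9.34 to 65.3 CPM in Tet2/Tet3 embryos and from 8.13 to 82.0 CPM in controls. In replicate 1 they ran from 1.19 to 15.98 CPM in Tet2/Tet3 embryos and from 1.51 to 18.8 CPM in controls. Member 16, the last inside the rule, had ratios of 3.23 in Tet2/Tet3 and 3.15 in control embryos.

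Just outside the rule, 7 genes had a smaller ratio from 2.59 to 2.91 with replicate 3 in place. Between the groups, the log2 ratios of these genes differed by -1.17 to 0.57 (Tet2/Tet3 minus control). Their mean levels were 5.996 to 15.5 CPM, inside the range of the members, whose means ran from 5.33 to 41.1 CPM with a median of 13.0. Ratios thus went on below the threshold of 3 without a gap.

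**Figure D1:**
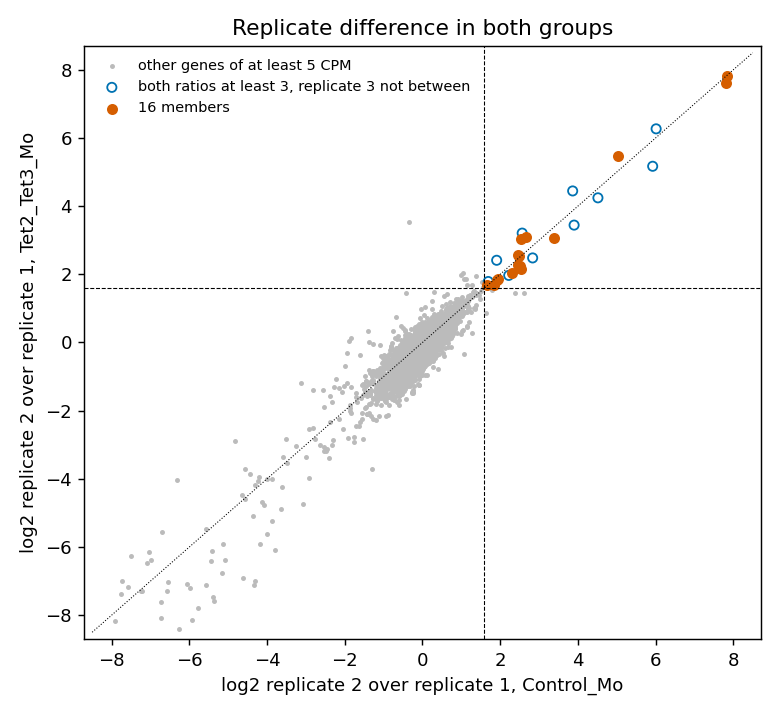
Log2 ratio of replicate 2 over replicate 1 in Tet2/Tet3 Morpholino embryos (vertical axis) against that in control Morpholino embryos (horizontal axis) for the 9614 genes whose mean reached 5 CPM, with 0.1 CPM added. Filled orange points are the 16 members and open blue circles the 10 genes that passed both ratios but whose replicate 3 was not between, the dashed lines mark a ratio of 3, and the dotted line marks equal values. The members lie along the line of equal values, within 0.49 log2 units of it, which is partly set by asking for both ratios.

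Replicate 3 did not sit at 1 fixed place between the others. Its place was measured on the log2 scale, where 0% is the level of replicate 1 and 100% that of replicate 2. It ran from 0% to 97.3% in Tet2/Tet3 and from 0% to 96.5% in control embryos. In 4 members it was under 25% in both groups, close to replicate 1. In the other 12 it was 41.5% to 97.3% in Tet2/Tet3 and 45.5% to 96.5% in control embryos, and in 10 of these it was over 50% in both groups. The place of a given gene was close in the groups, differing by -21.4 to 11.7 percentage points (Tet2/Tet3 minus control), with r = 0.96 over the 16 members. The rule holds this place within 0% to 100% in both groups, and genes are not independent, so this is a description.

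The 4 members near replicate 1 were members 1, 6, 7 and 9, with the letters E, D, F and K. Member 7 was the highest of all in replicate 2, with 65.3, 15.9 and 11.1 CPM in replicates 2, 3 and 1 of the Tet2/Tet3 embryos and 82.0, 17.2 and 14.7 CPM in those of the controls. Member 9 had 46.4, 11.4 and 9.58 CPM in replicates 2, 3 and 1 of the Tet2/Tet3 embryos, and 56.0, 12.6 and 10.1 CPM in those of the controls. Member 6 had 15.5, 2.74 and 1.81 CPM in Tet2/Tet3 embryos and 16.3, 3.28 and 2.72 CPM in controls, again for replicates 2, 3 and 1. In these genes replicate 2 stood apart and the other two replicates lay close together.

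Members 8 and 16, both with the letter F, were the opposite case. Member 8 had 37.5, 35.7 and 6.21 CPM in replicates 2, 3 and 1 of the Tet2/Tet3 embryos and 45.01, 40.3 and 8.10 CPM in those of the controls. Member 16 had 51.8, 50.2 and 15.98 CPM in Tet2/Tet3 embryos and 59.4, 50.5 and 18.8 CPM in controls. Here replicate 1 stood apart and replicates 2 and 3 lay close together. Of the 8 members with the letter F, 7 had replicate 3 above 50% in both groups, and member 7 was the exception. Member 10, with the letter D, had replicate 3 near the middle, with 16.9, 6.74 and 3.49 CPM in replicates 2, 3 and 1 of the Tet2/Tet3 embryos and 19.1, 8.37 and 3.29 CPM in those of the controls. Its 3 replicates were thus spaced nearly evenly on the log2 scale, with replicate 3 at 41.5% in Tet2/Tet3 and 52.8% in control embryos.

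**Figure D2:**
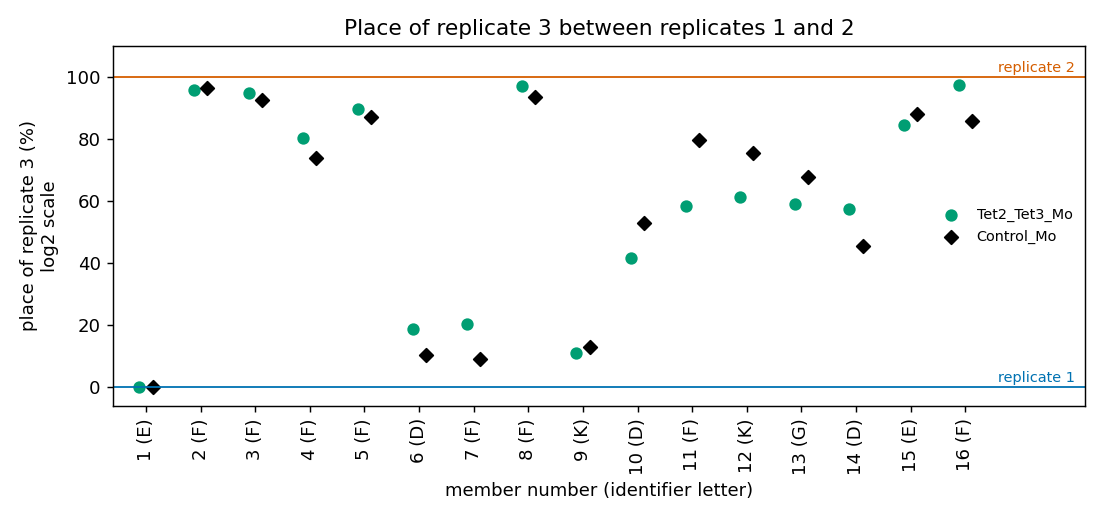
Place of replicate 3 between replicate 1 (0%) and replicate 2 (100%) on the log2 scale of CPM + 0.1 for each member, with circles for Tet2/Tet3 Morpholino and diamonds for control Morpholino embryos. In both groups 4 members lie under 25%, and the 2 points of a member differ by -21.4 to 11.7 percentage points (Tet2/Tet3 minus control).

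In the 10 genes that passed both ratios but not the place, replicate 3 was above replicate 2 in both groups for 5 and in 1 group for 2, and below replicate 1 in at least 1 group for the other 3. One with the letter I had 90.5, 132.8 and 4.68 CPM in replicates 2, 3 and 1 of the Tet2/Tet3 embryos, against 80.1, 102.2 and 3.41 CPM in those of the controls. Another, with the letter K, had 7.61, 13.7 and 0 CPM in Tet2/Tet3 embryos and 6.36, 12.3 and 0 CPM in controls. The rule leaves out genes like these, in which replicate 1 alone is low, when replicate 3 happens to exceed replicate 2.

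The members took a small part of each library. Their summed level was 441.8, 259.8 and 72.9 CPM in replicates 2, 3 and 1 of the Tet2/Tet3 embryos. It was 515.6, 290.6 and 87.2 CPM in those of the controls. The 95% exact binomial interval of the lowest sum, in replicate 1 of the Tet2/Tet3 embryos, was 70.3 to 75.5 CPM and covers counting error only. Replicate 2 over replicate 1 was 6.06 for the sum in Tet2/Tet3 embryos and 5.91 in controls. The libraries held 37973110 to 44792849 counts, so 1 CPM stood for 37.97 to 44.79 reads.

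The identifiers of the members were unevenly spread over the letters that follow Xetro. Of the 16, 8, or 50% (95% exact binomial interval 24.7% to 75.3%), had the letter F, against 8.02% of the 9614 genes of at least 5 CPM. The remaining members had the letters D (3), E (2), K (2) and G (1), and 0 had A, the most common letter at 14.9% of the 9614. What the letters and numbers stand for is not given in the sources used here, and no test was made of these shares. The interval treats genes as independent draws, which they need not be. The members are all the genes that passed the rule, so the interval is no test against 8.02%.

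The letter F was also common among genes with the opposite pattern. Reversing the rule, with replicate 1 at least 3 times replicate 2 in both groups, gave 77 genes, of which 24, or 31.2%, had the letter F. Over all genes of at least 5 CPM, 46 of the 771 with the letter F (5.97%) differed at least 2-fold between replicates 2 and 1 in the same direction in both groups, against 208 of the 8843 with other letters (2.35%). Most of the 46 are the 8 members and the 24 reversed-rule genes with the letter F, which pass 2-fold by their rules. The 208 likewise include the members and reversed-rule genes with other letters. The shares were not computed without them, so nothing is read from these shares about F genes outside those lists. The log2 ratio of replicate 2 over 1 had an SD of 1.25 across the F genes in Tet2/Tet3 embryos and 1.10 in controls. For the letter with the next largest SD, E, it was 0.75 in Tet2/Tet3 embryos and 0.66 in controls. The medians of the F genes were -0.04 in Tet2/Tet3 embryos and -0.002 in controls, so the F genes as a set were spread more widely and not shifted. These SDs include the members and the reversed-rule genes, so they do not show a wider spread among the remaining F genes.

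**Figure D3:**
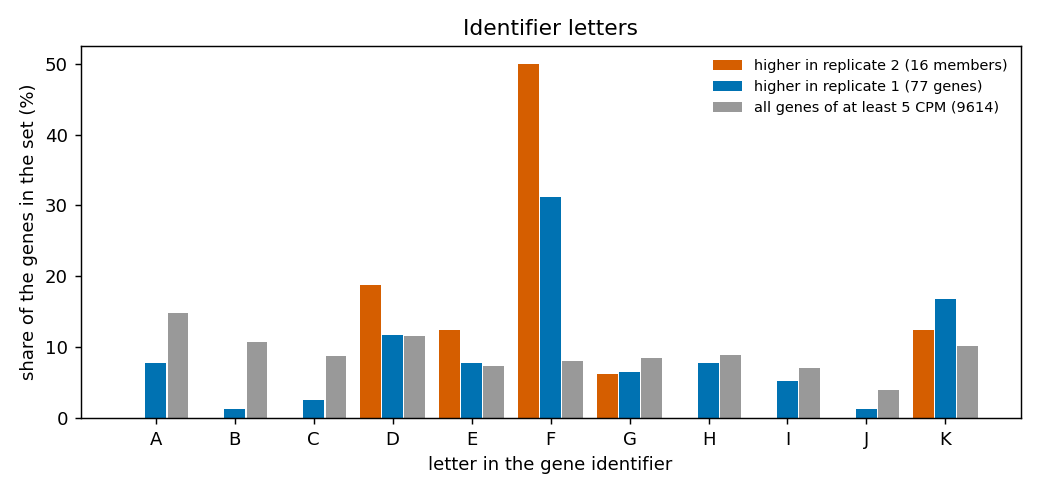
Share of genes (vertical axis, %) with each identifier letter among the 16 members (orange), the 77 genes of the reversed rule (blue) and all 9614 genes of at least 5 CPM (grey). The letter F holds 50%, 31.2% and 8.02% of these sets.

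Most genes with adjacent identifier numbers did not share the pattern, which also held for most genes at large. The 16 members had 32 identifiers directly before or after them, 0 of which were members. A mean of at least 5 CPM was found for 13 of the 32, with a median log2 ratio of replicate 2 over 1 of 0.02 in Tet2/Tet3 and 0.03 in control embryos. Of these, 12 lay within 2-fold in both groups. The exception was the identifier just before member 6, which had 25.5, 8.22 and 7.43 CPM in replicates 2, 3 and 1 of the Tet2/Tet3 embryos and 25.8, 9.25 and 8.78 CPM in those of the controls. It missed the rule with a smaller ratio of 2.91. Over all genes of at least 5 CPM, 5.97% of those with the letter F differed at least 2-fold in the same direction in both groups. For those with other letters the share was 2.35%. Both shares count either direction and include the members. At least 2-fold higher in replicate 2 in both groups were 9 of the 1109 genes with the letter D, that of the exception. With only 13 neighbours at this level, nothing is read from the count among them.

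Lower-level neighbours of member 7 also went with it. The identifier before it, at a mean of 3.15 CPM, had log2 ratios of replicate 2 over 1 of 1.51 in Tet2/Tet3 and 1.90 in control embryos. The identifier after it, at 1.75 CPM, had 1.75 in Tet2/Tet3 and 1.87 in control embryos. Neighbours of other members under 5 CPM went either way, and several had 0 reads in every library. These examples were picked after their values were seen. The identifier before member 16, at 0.42 CPM, had 2.10 in Tet2/Tet3 and 1.04 in control embryos. Its level in replicate 1 of the Tet2/Tet3 embryos was 0.12 CPM, near the added 0.1, so its ratio is imprecise. The identifier after member 14, at 4.28 CPM, had -1.09 in Tet2/Tet3 and -0.52 in control embryos. The closest members by number were members 3 and 4, which lay 11 apart under the letter F. How the counting treated reads shared between overlapping or near-identical genes is not given in the sources used here, so such neighbours may share reads.

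The members were then compared between Tet2/Tet3 and control embryos, which is the question of the study. Because the rule asks for a large difference between replicates of 1 group, a test of group alone has little precision for these genes. The low-count filter kept 15 of the 16, leaving out Xetro.E01085, which had reads in 2 libraries only. The standard error of the log2 fold change had a median of 0.81 over the 15, against 0.17 over all 13221 genes tested. Of the 15 members, 0 were called by the fit of group alone (edgeR, quasi-likelihood test with 3 libraries per group, threshold of 0.05 on the Benjamini-Hochberg adjusted p), against 11.5% of all tested genes. At an unadjusted p under 0.05 it also held 0 of them, against 28.1% of all tested genes, and DESeq2 called 0 of 15, against 26.6%. The members' adjusted p-values ran from 0.65 to 0.997 in edgeR. This count says little about the members, whose spread within groups the rule had set.

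With the replicate number as a block, members were called lower, called higher or not called, as was the case over all tested genes. The block takes the differences between replicate numbers out of the spread. The standard error had a median of 0.10 over the 15, against 0.08 over all tested genes. In Tet2/Tet3 embryos 5 members fell and 3 rose, or 8 of 15, against 23.8% of all tested genes called lower, 23.4% called higher and 47.3% called in all (edgeR, adjusted p under 0.05). The rule names this contrast. It also asks for the replicate difference in both groups, which partly sets the spread left after the block. Nothing is therefore read from these shares. The median log2 fold change of the 15 was -0.12, against -0.008 over all tested genes. Leaving out pair 2 gave 4 calls among 15 members, against 37.3% of all tested genes, and leaving out pair 3 gave 4 among 16, against 34.7%. DESeq2 with the block called 5 of 15, against 44.0% of all genes it tested, and leaving out pair 1 gave 7 of 16, against 49.8%. The share called over all genes was thus also lower without pair 2, without pair 3 and with DESeq2, and higher without pair 1.

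Xetro.F00402 (member 5) had the largest fall. Its levels were 15.9, 12.7 and 1.77 CPM in replicates 2, 3 and 1 of the Tet2/Tet3 embryos, against 25.6, 20.1 and 3.91 CPM in those of the controls. Each Tet2/Tet3 library was below its same-numbered control, although the groups overlapped because of the replicate differences. The log2 fold change with the block was -0.64 (SE 0.11, adjusted p = 0.0022, edgeR), and that of group alone was -0.57 (SE 0.90, adjusted p = 0.75, edgeR).

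Xetro.K04002 (member 12) had 18.5, 10.7 and 4.44 CPM in replicates 2, 3 and 1 of the Tet2/Tet3 embryos, against 29.0, 19.5 and 5.74 CPM in those of the controls. It was again lower in 3 of 3 pairs while the groups overlapped. The log2 fold change with the block was -0.52 (SE 0.10, adjusted p = 0.0033, edgeR), and that of group alone was -0.55 (SE 0.69, adjusted p = 0.68, edgeR). Without the block, the call of both named genes was lost.

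The other falls with the block were in members 13, 4 and 15, with log2 fold changes of -0.54, -0.34 and -0.22. Member 13 had 9.34, 5.48 and 2.51 CPM in replicates 2, 3 and 1 of the Tet2/Tet3 embryos and 14.6, 9.40 and 3.73 CPM in those of the controls. Member 4 had 10.8, 7.08 and 1.19 CPM in Tet2/Tet3 embryos and 16.8, 9.04 and 1.51 CPM in controls, in the same replicate order. Member 15 had 24.95, 20.8 and 7.69 CPM in Tet2/Tet3 embryos and 32.5, 27.8 and 9.06 CPM in controls. All 3 genes were lower in each Tet2/Tet3 library than in its same-numbered control, on plain and on TMM-scaled CPM. Members 5, 12 and 13 were called in all 9 fits that kept the block, which reuse the same libraries and are not independent. Member 4 was called in 6 of the 9 and member 15 in 5.

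The rises were in members 14, 11 and 3, with log2 fold changes with the block of 0.49, 0.40 and 0.32. Member 14 had 9.66, 5.58 and 2.65 CPM in replicates 2, 3 and 1 of the Tet2/Tet3 embryos and 8.13, 3.89 and 2.08 CPM in those of the controls, higher in 3 of 3 pairs. Member 11 had 14.5, 7.74 and 3.20 CPM in Tet2/Tet3 embryos and 11.7, 8.17 and 1.94 CPM in controls. Its direction in pair 3 depended on the scaling, with a log2 ratio of -0.08 on plain CPM and 0.06 with TMM factors. Member 3 was lower in pair 1 and higher in pairs 2 and 3 under both scalings. The 3 rises were called in 8, 6 and 7 of the 9 fits with the block, for members 14, 11 and 3.

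The remaining 7 tested members were not called with the block, with log2 fold changes from -0.16 to -0.02 and adjusted p-values from 0.15 to 0.88 (edgeR). Among them, Xetro.F01259 differed by -0.07 on the log2 scale (adjusted p = 0.59 with the block, SE 0.10, edgeR), and it was at 0 in both libraries of pair 1. Xetro.E01085 could be compared in pair 2 only, where it had 22.6 CPM in the Tet2/Tet3 and 23.0 CPM in the control library, a log2 ratio of -0.02 on plain CPM and 0.13 with TMM factors.

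Scaling matters for small differences of this kind. On plain CPM, the median log2 ratio of Tet2/Tet3 over control of all 9614 genes was -0.07, -0.13 and -0.13 in pairs 1, 2 and 3, and that of the members -0.24, -0.23 and -0.21. With TMM factors, the members' medians were -0.14, -0.07 and -0.06 and those of all 9614 genes 0.04, 0.02 and 0.02. With TMM factors, 6 members were lower in all 3 pairs, against 34.9% of the 9614 genes, and 2 were higher in all 3, against 41.6%. On plain CPM, 10 were lower in all 3, against 49.8% of the 9614 genes, and 1 was higher in all 3, against 27.7%. Members 1 and 2 tie at 0 in pair 1 and could be in neither count.

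**Figure D4:**
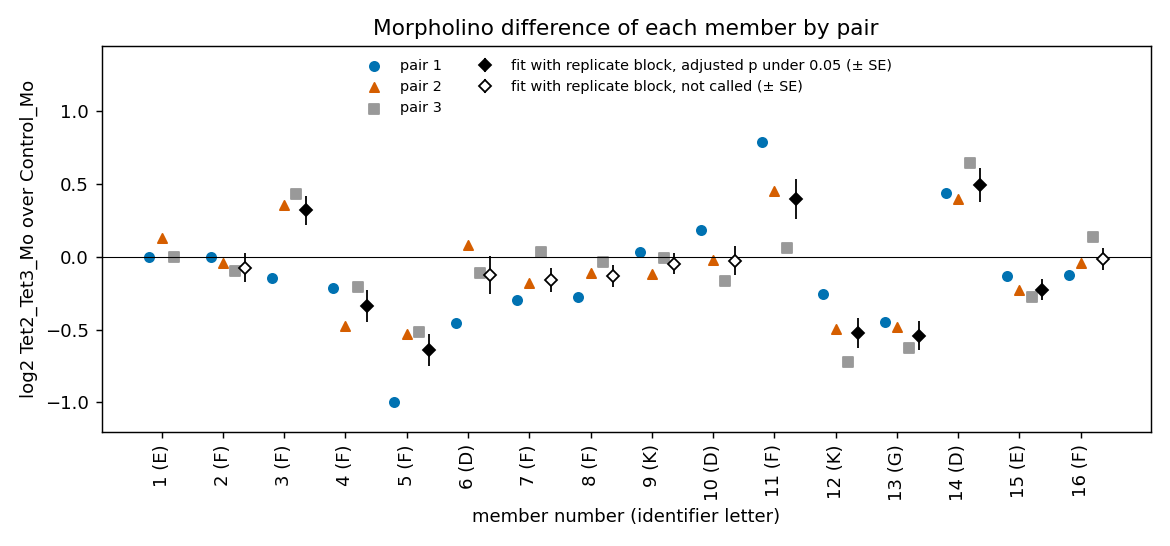
Log2 ratio of Tet2/Tet3 Morpholino over control Morpholino for each member in pairs 1 (circles), 2 (triangles) and 3 (squares), on TMM-scaled CPM with 0.1 added, and the edgeR estimate with the replicate block as diamonds with its standard error, filled where the adjusted p was under 0.05. The 5 filled diamonds of genes that fell lie below 0 and the 3 of genes that rose above it, and member 1 has no estimate. Points at 0 for members 1 (pairs 1 and 3) and 2 (pair 1) stand for 0 reads in both libraries.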

How the data were processed

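Poly(A) RNA from 6 pools of embryos was sequenced as single reads from a stranded kit, per the labels' protocols. The authors deposited whole-number read counts per gene identifier, 1 file per library. Per the submitters' processing notes, featureCounts 1.5.1, STAR 2.5.4b, SAMtools 1.3.1, FastQC, bcl2fastq and Subread were among the tools. The sources used here give no build, annotation, strand setting or treatment of multiply mapped reads. Of the identifiers, 0 of 28165 matched the RefSeq gene table.

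Groups and replicate numbers came from the sample titles. CPM was computed from each library's total. The members and lists were chosen with earlier results of these data known. Tet2/Tet3 over control was tested over all genes with edgeR 4.0.16 in R 4.3.3 (filterByExpr with a minimum count of 10, TMM factors, glmQLFit and glmQLFTest, Benjamini-Hochberg adjustment), on group alone and with the replicate number as a block. DESeq2 1.42.0 was an alternative. Standard errors came from the quasi-likelihood F statistic. The procedure was tested on simulated data.

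Deviations from the group means of log2 CPM correlated between same-numbered libraries at 0.87, 0.87 and 0.74 for replicates 1, 2 and 3. The numbers were therefore taken to pair the libraries, from the data and not from the labels. As a check for libraries deposited more than once, counts were compared between libraries of 1 group (chi-square per degree of freedom 25.4 to 99.2). None agreed within counting noise, which does not show that they are independent, and the n of 3 per group rests on the labels. P-values of the fit of group alone weigh the Tet2/Tet3 over control difference against the spread between the libraries of a group. In the fit with the block, differences between replicate numbers are taken out. Its p-values weigh the Tet2/Tet3 over control difference against how far that difference varied between the pairs.

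Named genes were the 2 members with the largest rise and the 2 with the largest fall in the blocked fit, among those with a mean of at least 10 CPM and 1 direction in all 3 pairs. The rule found 2 falls and 0 rises.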

Additional observations from a re-analysis of the deposited data

How the results depend on the processing

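The number of members was 16 and depended on the thresholds. A ratio of at least 2 gave 36, a mean of at least 1 CPM gave 36, a mean of at least 10 CPM gave 9, and no condition on replicate 3 gave 26. TMM-scaled CPM, added constants of 0.5 and 1, a ratio of 4, no exclusions and a place strictly between gave 12 to 17. The share with the letter F was 27.8% to 66.7% over these settings. The fit of group alone called 0 members under each scaling, filter, DESeq2 and omission of 1 library, and 8 with the replicate block. Over all genes, group alone called 1518 in the fit reported and 1158 to 2965 under the scalings, filters and DESeq2. With 1 library left out it called 110 to 2651, so the 0 among members says little. With the block, DESeq2 gave 5 and leaving out a pair gave 4 to 7, while the scalings and filters gave 7 or 8. Calls over all genes with the block numbered 6247 in the fit reported, 5361 with DESeq2, 4650 to 6608 without a pair and 6237 to 6291 under the scalings and filters. The median log2 fold change of members with group alone was -0.09. It was -0.08 with RLE or upper-quartile factors and with DESeq2, and -0.89 to 0.50 with 1 library left out. It was above 0 without Tet2/Tet3 replicate 1 (0.37) or control replicate 2 (0.50), as an unbalanced set of replicate numbers shifts genes chosen for a replicate difference. The summed level averaged 278.0 CPM over the libraries and 280.1 and 324.1 with TMM-scaled totals and totals without the 100 genes highest in controls. Depth limits the members at 0 in replicate 1, whose folds are bounds.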

Other observations

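Genes read in 1 replicate number and absent from another were few in either direction. Over all 28165 identifiers, 4 had 0 reads in both replicate 1 libraries and at least 100 in both replicate 2 libraries, members 1 and 2 among them. The reverse, 0 reads in both replicate 2 libraries and at least 100 in both replicate 1 libraries, held for 7. For replicates 3 and 1, 3 identifiers were read in replicate 3 and absent from replicate 1, and 4 were read in replicate 1 and absent from replicate 3. In replicates 2 and 3, 4 were read in replicate 2 and absent from replicate 3, and 0 were read in replicate 3 and absent from replicate 2.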
